A study of Mus musculus with 31 samples.

Results

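The data described here compare spheroids of Cxcl5 knockout (Cxcl5-/-) pancreatic cancer cells that overexpressed Myc with spheroids of the same knockout that overexpressed a mutant Hif1a. The 6 libraries, 3 of each kind, were taken from the 31 samples of the series by their genotype labels alone, and all genes were compared. The study grew murine pancreatic adenocarcinoma cells, Panc02 in its methods and under varying line numbers in the labels, as spheroids in Matrigel, a basement membrane gel, and sequenced their total RNA after CRISPR-Cas9 deletion of the chemokine gene Cxcl5. Cells carrying the deletion were then given a retroviral pLPCX vector with Myc or with Hif1a and selected with puromycin. The question is which transcripts separate cells given one factor from cells given the other.

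Both groups, called MycOE and Hif1aOE below, share the Cxcl5 deletion, the vector backbone, the selection and 3D culture in plain culture medium. In the Hif1a construct prolines and an asparagine were replaced by alanine, which protects the protein from the hydroxylases that mark it in the presence of oxygen. Spheroids of wild-type cells (WT, 2 libraries) and of Cxcl5-/- cells without a Myc or Hif1a construct (2 libraries) from the same count table are given beside the comparison. The latter are called construct-free below, although the deletion itself was made with a lentiviral CRISPR vector and puromycin. The samples include no group with an empty pLPCX vector. A difference from the construct-free knockout therefore also holds the added vector and its selection. The sources used here do not give more than 1 line for each construct, so that an effect of the construct and a difference between lines cannot be told apart. Counts per gene do not separate the vector's transcript from the cell's own.

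Myc is a transcription factor that binds DNA with its partner Max, mostly at the E-box CACGTG, and is known for raising the genes of ribosome production, nucleotide synthesis and the cell cycle. Hif1a is the oxygen-regulated subunit of hypoxia-inducible factor 1, which pairs with Arnt, binds the core letters ACGTG or GCGTG and raises glycolysis, glucose uptake and angiogenic signals. In normal oxygen the Egln enzymes hydroxylate Hif1a and the Vhl complex leads it to destruction, so that its activity is set at the protein more than at the transcript. The factors share targets, among them the glycolytic enzymes.

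The MycOE libraries held 51639654 to 60438310 counts and the Hif1aOE libraries 51419869 to 64872036, against 41542533 to 43890492 in the WT and Cxcl5-/- libraries. The WT libraries stood apart by 43037 and 43048 genes with a count, against 26886 to 31338 in the other 8. Counts of small nuclear, nucleolar and other structural RNA took 3.63% to 4.49% of the MycOE libraries and 2.50% to 3.63% of the Hif1aOE libraries. Each library held the transcripts of keratins Krt8 and Krt18 and of vimentin, while Epcam was too low to be tested and Cdh1 (E-cadherin) lay between 0 and 0.0784 CPM in the 6 libraries. Among the markers of other cells, Cdh5 and Kdr (endothelium), Cd3e (T lymphocytes), Gcg (endocrine cells) and Adgre1 (macrophages) stayed below 1 CPM in each of the 6. These are single members of longer lists. At an adjusted p under 0.05 by edgeR, 1 of 5 macrophage markers was higher in Hif1aOE (log2 fold change -1.05). Of 4 endothelial markers 1 was higher in each group, and of 2 erythroid markers 1 was higher in Hif1aOE. The levels of the other members are not given here.

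The Myc transcript marked its group. It reached 548, 525 and 397 CPM (counts scaled to library size, with TMM correction) in the 3 MycOE libraries and 23.02, 26.8 and 25.6 CPM in the 3 Hif1aOE libraries, with 22.3 and 20.02 CPM in Cxcl5-/- and 49.3 and 46.1 CPM in WT (log2 fold change 4.28 ± 0.13 SE, edgeR adjusted p = 1.0e-08). The lowest MycOE library lay far above every other library. The Hif1a transcript did not separate the groups: it stood at 241, 271 and 262 CPM in MycOE and 258, 296 and 243 CPM in Hif1aOE (log2 fold change -0.04 ± 0.088 SE, edgeR adjusted p = 0.83). Both groups lay above the 144 and 133 CPM of Cxcl5-/- and below the 304 and 324 CPM of WT. The transcript as counted here is therefore no check of the Hif1aOE label, and protein was not measured in these files. The study's methods report that Hif1a and Myc expression was checked by qRT-PCR. Cxcl5 transcripts were still counted after the deletion, at 49.1, 46.7 and 37.8 CPM in MycOE and 35.5, 44.8 and 38.1 CPM in Hif1aOE, with 36.6 and 40.2 CPM in Cxcl5-/- and 64.2 and 67.7 CPM in WT (log2 fold change 0.17 ± 0.11 SE, edgeR adjusted p = 0.34).

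**Figure D1:**
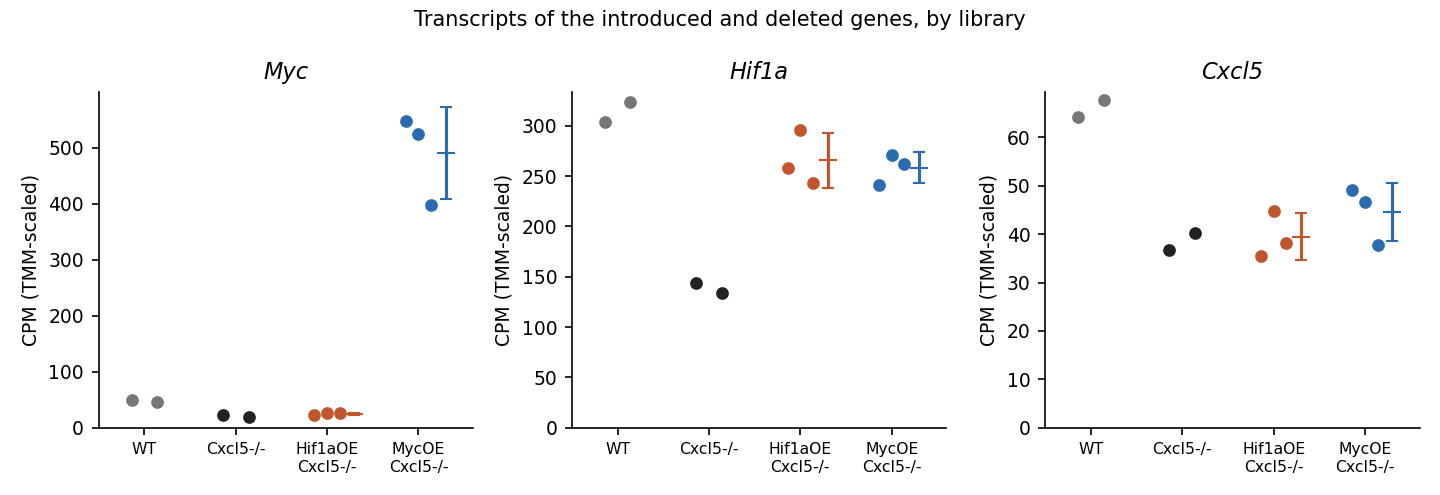
Expression of Myc, Hif1a and Cxcl5 in each library (points, CPM scaled by TMM) for WT, Cxcl5-/-, Hif1aOE Cxcl5-/- and MycOE Cxcl5-/- spheroids, with the mean ± SD beside the groups of 3. Myc is high in the MycOE libraries alone, whereas Hif1a overlaps between MycOE and Hif1aOE and Cxcl5 is about equally low in all lines with the deletion.

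Of 28730 genes tested, 5538 (19.3%) differed between MycOE and Hif1aOE at an adjusted p under 0.05 by edgeR's quasi-likelihood test with Benjamini-Hochberg adjustment. Of these, 2742 (9.54% of the genes tested) were higher in MycOE and 2796 (9.73%) were higher in Hif1aOE. The lists below hold chiefly protein-coding genes, of which 2212 and 2405 of 17527 tested were called. For protein-coding genes with a mean of at least 50 counts, without ribosomal proteins, the shares depended on exon length. They were 14.4% to 17.9% higher in MycOE and 10.4% to 21.8% higher in Hif1aOE. A list share within or below these ranges does not set a list apart. With scaling by library totals the split was 1982 to 3504, and the median of all log2 fold changes moved from -0.01 to -0.13. A difference of more than 1 on the log2 scale was held by 854 of the genes higher in MycOE and 1124 of those higher in Hif1aOE. Fold changes are given as MycOE minus Hif1aOE on the log2 scale with their standard error, and n is 3 libraries a group throughout.

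On the first pair of principal components, which held 36.7% and 29.5% of the variance of the 500 most variable genes, the MycOE and Hif1aOE libraries lay 75.9 units apart. Libraries of a group lay on average 1.78 (MycOE) and 3.04 (Hif1aOE) from their own centre. The Hif1aOE libraries were placed 21.9 units from WT and 68.5 from Cxcl5-/-. The MycOE libraries lay 75.2 units from WT and 83.4 from Cxcl5-/-. MycOE separated from all other groups along the first component, and Hif1aOE lay nearer WT than Cxcl5-/-. With all tested genes in place of the 500, MycOE and Hif1aOE lay 88.4 units apart and the order changed, Hif1aOE being 158 units from Cxcl5-/- and 210.4 from WT, the libraries with the most genes counted.

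**Figure D2:**
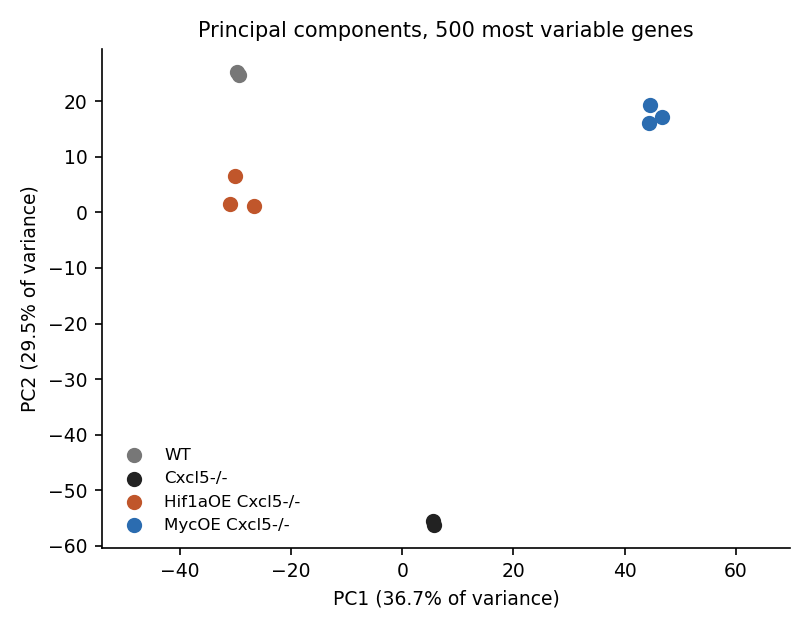
Principal components of the 10 libraries (log2 CPM, 500 most variable genes), each point 1 library coloured by group, axes in component units with equal scale. The MycOE libraries stand alone at the right, the Hif1aOE libraries lie with WT at the left, and the Cxcl5-/- libraries lie at the bottom.

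Members of each factor's own network differed as well. Max, the obligate partner of Myc, was at 29.8, 32.3 and 30.9 CPM in MycOE and 16.6, 21.2 and 17.1 CPM in Hif1aOE (log2 fold change 0.76 ± 0.10 SE, edgeR adjusted p = 3.0e-04), and the groups did not overlap. Mga, a Max-binding repressor of E-box genes, was held at 78.7, 86.9 and 99.5 CPM in MycOE, near its 109 and 100.60 CPM in Cxcl5-/- and 71.3 and 73.9 CPM in WT, but at only 7.12, 11.4 and 12.9 CPM in Hif1aOE (log2 fold change 3.07 ± 0.18 SE, edgeR adjusted p = 8.5e-07). Here the Hif1aOE line was the one that departed from all others. The antagonist Mxd4 was higher in MycOE (0.86 ± 0.079) and the antagonist Mnt lower (-0.49 ± 0.10). Of 11 members tested, 4 were higher in MycOE, the introduced Myc among them, and 2 in Hif1aOE, Mnt and Mlxipl. The call of Mlxipl, which had no count in MycOE, was lost in 4 of the 6 fits that left out 1 library (adjusted p up to 0.076).

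Of 14 components of the HIF pathway, 3 were higher in MycOE and 2 in Hif1aOE. Egln3, an oxygen-sensing prolyl hydroxylase that HIF itself induces, was at 322, 356 and 341 CPM in MycOE and 134, 169.9 and 169 CPM in Hif1aOE (log2 fold change 1.11 ± 0.10 SE, edgeR adjusted p = 1.4e-05), with 199 and 181 CPM in Cxcl5-/- and 253 and 249 CPM in WT. The Hif1aOE level was thus below that of Cxcl5-/- cells. Vhl, the recognition subunit of the ligase that removes hydroxylated Hif1a, was at 58.1, 62.8 and 62.01 CPM in MycOE and 48.96, 49.1 and 43.02 CPM in Hif1aOE (log2 fold change 0.37 ± 0.077 SE, edgeR adjusted p = 0.0054). Its scaffold Cul2 was higher in MycOE (0.41 ± 0.083). Both of these calls were lost with scaling by library totals. Without Hif1aOE replicate 2, 5 of the 14 were higher in MycOE. The calls in Hif1aOE, Arnt and Egln2, were both lost without Hif1aOE replicate 1 or 3 or MycOE replicate 2 (adjusted p up to 0.15) and with the replicate block.

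Ribosomal proteins had the largest share of members higher in MycOE among the lists of at least 20 genes tested. Of 84 cytosolic ribosomal protein genes tested, 68 were higher in MycOE and 0 in Hif1aOE, and the median log2 fold change was 0.63 against -0.01 over all genes tested. At an unadjusted p under 0.05 the counts were 78 and 0, and by DESeq2 they were 77 and 0. Rps7 stood at 1286, 1199 and 1032 CPM in MycOE and 460.3, 705 and 469 CPM in Hif1aOE (log2 fold change 1.11 ± 0.15 SE, edgeR adjusted p = 4.1e-04), and the groups did not overlap. Rpl3, which helps form the peptidyl transferase centre, was at 1842, 1722 and 1569 CPM in MycOE and 948, 1180.5 and 863 CPM in Hif1aOE (log2 fold change 0.78 ± 0.12 SE, edgeR adjusted p = 6.5e-04). The construct-free cells were lower than either group for Rps7, at 224 and 242 CPM in Cxcl5-/-, and over the list the median difference from Cxcl5-/- was 2.12 in MycOE and 1.48 in Hif1aOE on the log2 scale.

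The count depended on single libraries. Over the list, the Hif1aOE replicates lay 1.34, 1.78 and 1.22 above Cxcl5-/- as a median log2 difference, and the MycOE replicates 2.25, 2.19 and 1.91. Hif1aOE replicate 2 also held the largest share of structural RNA of its group (3.63%) and the lowest protein-coding share (70.1%). Without it, 78 members were higher in MycOE; without Hif1aOE replicate 1 or MycOE replicate 1, 42 and 43 were. Among other protein-coding genes with a mean of at least 50 counts, those with exons of up to 1000 bases in all had a median log2 fold change of 0.16. The median was 0.07 for 1000 to 2000 bases, 0.01 for 2000 to 4000 bases and -0.05 for more than 4000 bases. Ribosomal protein genes had a median of 1754 bases. In the class of 1000 to 2000 bases, 15.1% of the other genes were higher in MycOE and 12.4% in Hif1aOE. The part of transcript length and of structural RNA in the ribosomal protein difference was not tested. Ribosomal protein genes have many processed copies in the genome, and how reads were shared among them is not given in the sources used here.

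Ribosome production differed less. Of 52 factors of ribosome biogenesis, 14 were higher in MycOE and 2 in Hif1aOE, with a median of 0.21. Ebna1bp2, which matures the large subunit, was at 93.9, 93.6 and 101.12 CPM in MycOE and 56.6, 63.3 and 51.7 CPM in Hif1aOE (log2 fold change 0.75 ± 0.083 SE, edgeR adjusted p = 7.8e-05). Nop56, a core protein of the box C/D particles that methylate ribosomal RNA, was at 167, 157 and 169 CPM in MycOE and 114, 126 and 102 CPM in Hif1aOE (log2 fold change 0.53 ± 0.083 SE, edgeR adjusted p = 9.6e-04). The nucleolar proteins Npm1 (0.35 ± 0.087) and Ncl (0.42 ± 0.085) were also higher in MycOE, the first not without Hif1aOE replicate 1 (adjusted p = 0.053) and the latter not with scaling by library totals. By role, 6 of 13 large subunit factors were higher in MycOE and none of 14 small subunit factors, of which Rrp12 was lower (-0.37 ± 0.083). The 14 calls became 5 without Hif1aOE replicate 1, 6 without Hif1aOE replicate 3, 8 without MycOE replicate 1 or 2, and 21 without Hif1aOE replicate 2; DESeq2 called 25 and library totals gave 7. The 2 higher in Hif1aOE became 1 without Hif1aOE replicate 1 or MycOE replicate 1 or 2.

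The cytosolic aminoacyl-tRNA synthetases, which load amino acids onto tRNA, were higher in MycOE for 10 of 20 members and in Hif1aOE for 0 (median 0.25), while 12 and 1 had an unadjusted p under 0.05 and DESeq2 called 12 and 1. Library totals gave 5 higher in MycOE. Lars, for leucine, was at 148, 146 and 158 CPM in MycOE and 92.4, 88.2 and 82.3 CPM in Hif1aOE (log2 fold change 0.78 ± 0.072 SE, edgeR adjusted p = 1.9e-05). Nars, for asparagine, was at 168, 157 and 174 CPM in MycOE and 109, 114 and 104 CPM in Hif1aOE (log2 fold change 0.61 ± 0.078 SE, edgeR adjusted p = 2.3e-04). Of 36 translation initiation factors, 12 were higher in MycOE and 4 in Hif1aOE, the latter being 2 without Hif1aOE replicate 1 or MycOE replicate 2. The split ran within the machinery. Eif3e (0.61 ± 0.090) and Eif3m (0.57 ± 0.10) were higher in MycOE. The scaffold Eif4g1 was higher in Hif1aOE, at 518, 500.2 and 517 CPM in Hif1aOE and 375, 358 and 399 CPM in MycOE (log2 fold change -0.44 ± 0.076 SE, edgeR adjusted p = 0.0019). Eif4ebp2, which restrains cap-binding Eif4e, was higher in MycOE (0.80 ± 0.12).

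**Figure D3:**
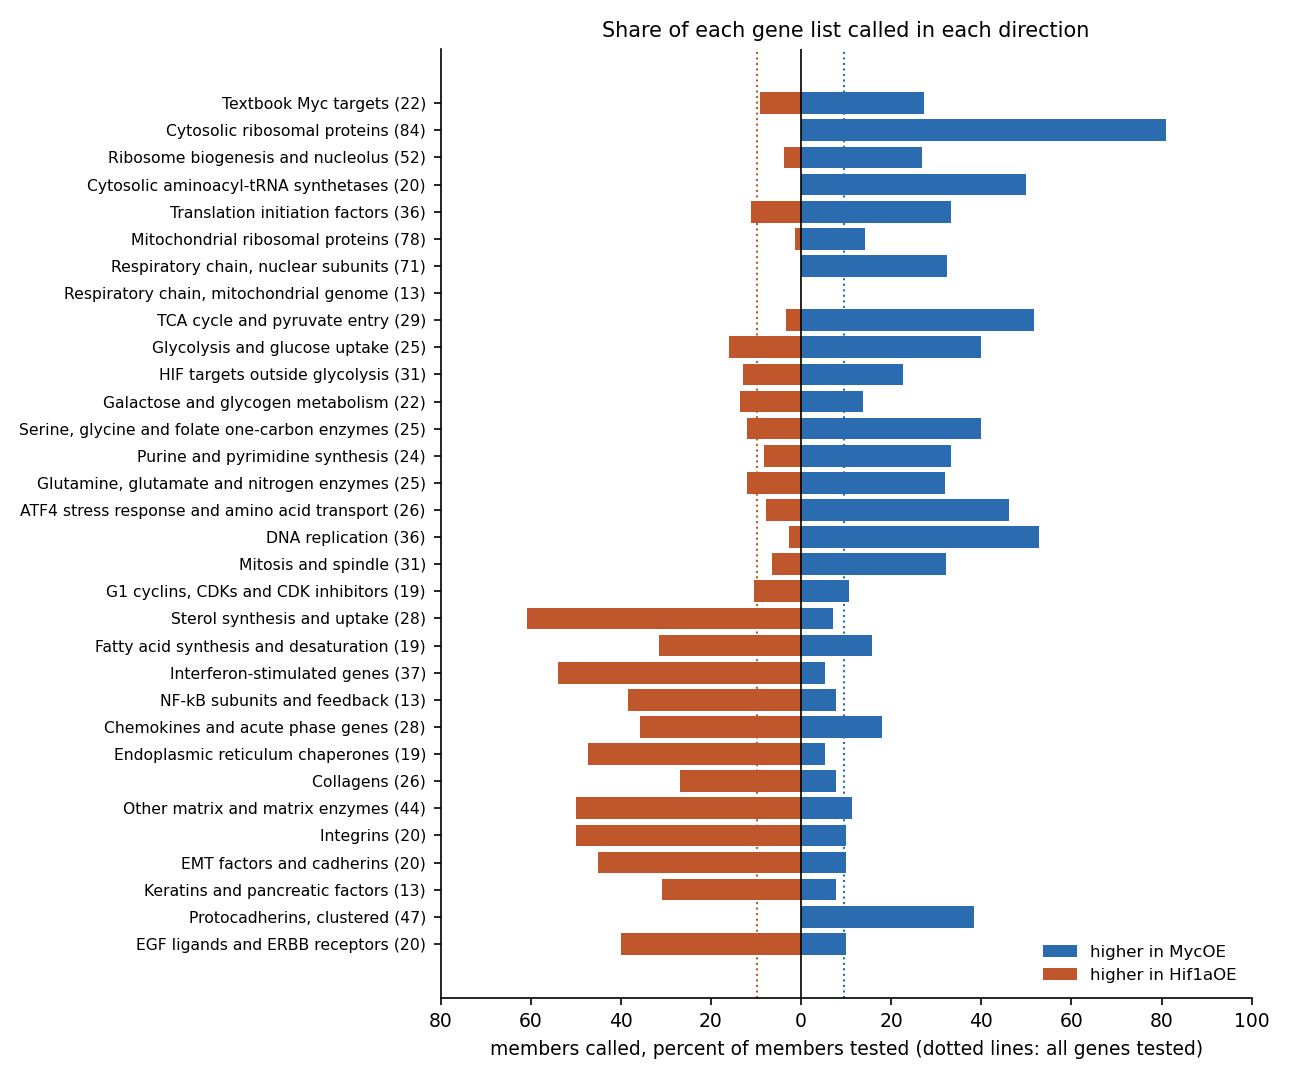
Share of each gene list called higher in MycOE (blue, to the right) or in Hif1aOE (orange, to the left) as a percentage of the members tested, whose number stands in brackets. Dotted lines mark the share over all genes tested (9.54% and 9.73%). Protein-coding genes with enough counts had higher shares, given in the text. Ribosomal proteins, DNA replication and the TCA cycle extend furthest to the right. Sterol synthesis, interferon-stimulated genes, matrix genes and integrins extend furthest to the left.

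Of 71 nuclear subunits of the respiratory chain, 23 were higher in MycOE and 0 in Hif1aOE (35 and 0 at an unadjusted p under 0.05, 33 and 0 by DESeq2), and 69 of the 71 estimates lay above 0 (median 0.31). Uqcrh of complex III was at 352, 326 and 309 CPM in MycOE and 158, 218 and 154 CPM in Hif1aOE (log2 fold change 0.90 ± 0.12 SE, edgeR adjusted p = 4.1e-04). Atp5c1, the central stalk of ATP synthase, was at 369.8, 358 and 338 CPM in MycOE and 216, 258 and 190.3 CPM in Hif1aOE (log2 fold change 0.68 ± 0.10 SE, edgeR adjusted p = 6.8e-04). Ndufv1, which takes electrons from NADH in complex I, was higher by 0.41 ± 0.076. Of the 13 subunits encoded in mitochondrial DNA, 0 passed the test although 12 estimates lay above 0 (median 0.27), 5 had an unadjusted p under 0.05 and DESeq2 called 4. Leaving out Hif1aOE replicate 2 raised the nuclear count to 54, whereas 11 were called without Hif1aOE replicate 1, 12 without Hif1aOE replicate 3, and 14 and 15 without MycOE replicate 1 and 2. Without Hif1aOE replicate 2, 10 of the 13 mitochondrially encoded subunits were called, and 2 without MycOE replicate 1 and 1 without MycOE replicate 3.

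Enzymes of the TCA cycle and of pyruvate entry were higher in MycOE for 15 of 29 members and in Hif1aOE for 1 (median 0.30). Pcx, pyruvate carboxylase, which makes oxaloacetate to refill the cycle, was at 199.6, 192 and 193 CPM in MycOE and 25.7, 32.5 and 34.9 CPM in Hif1aOE (log2 fold change 2.65 ± 0.11 SE, edgeR adjusted p = 6.9e-08). Cxcl5-/- cells held 86.3 and 90.2 CPM and WT cells 28.3 and 32.6 CPM, so that MycOE lay above all other groups and Hif1aOE near WT. Idh3b, a subunit of the NAD-dependent isocitrate dehydrogenase, was at 128, 116 and 105 CPM in MycOE and 65.6, 66.4 and 65.5 CPM in Hif1aOE (log2 fold change 0.82 ± 0.080 SE, edgeR adjusted p = 2.8e-05). Suclg2, of the GTP-forming succinyl-CoA ligase, was higher by 0.75 ± 0.086. Pdk1, a HIF target that switches off pyruvate dehydrogenase, was also higher in MycOE, at 319.8, 321 and 346 CPM in MycOE and 217, 194 and 197 CPM in Hif1aOE (log2 fold change 0.70 ± 0.072 SE, edgeR adjusted p = 4.7e-05). Ogdh, part of the 2-oxoglutarate dehydrogenase, was the member higher in Hif1aOE (-0.37 ± 0.072). The 15 calls became 9 without Hif1aOE replicate 1, Hif1aOE replicate 3 or MycOE replicate 1. Of 78 mitochondrial ribosomal proteins, 11 were higher in MycOE and 1 in Hif1aOE (median 0.18). The first count ran from 4 without Hif1aOE replicate 1 to 25 without Hif1aOE replicate 2, with 5 or 6 without Hif1aOE replicate 3 or MycOE replicate 1 or 2, and the second was 4 without Hif1aOE replicate 3.

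Glycolysis, a programme of both factors, was higher in MycOE for 10 of 25 genes and in Hif1aOE for 4 (median 0.19). Slc2a1, a glucose transporter of most cells, was at 183, 209 and 251 CPM in MycOE and 168, 148 and 162 CPM in Hif1aOE (log2 fold change 0.43 ± 0.11 SE, edgeR adjusted p = 0.020), with 62.9 and 54.8 CPM in Cxcl5-/- and 268 and 281 CPM in WT. The call was lost with library totals and without MycOE replicate 3 (adjusted p = 0.062). Gpi1, the phosphoglucose isomerase, was at 1373, 1396 and 1235 CPM in MycOE and 884, 955 and 952 CPM in Hif1aOE (log2 fold change 0.52 ± 0.079 SE, edgeR adjusted p = 7.7e-04). Pgk1, which forms the first ATP of the pathway, stood at 2076, 2015 and 2003 CPM in MycOE and 1552, 1680.0 and 1371 CPM in Hif1aOE (log2 fold change 0.40 ± 0.089 SE, edgeR adjusted p = 0.0078). The aldolase Aldoa was at 2284, 2081 and 1914 CPM in MycOE and 1561, 1706 and 1519 CPM in Hif1aOE (log2 fold change 0.39 ± 0.091 SE, edgeR adjusted p = 0.011). For these enzymes both groups lay above the construct-free knockout, where Pgk1 was at 775 and 787 CPM and Aldoa at 925 and 973 CPM. Over the list the median difference from Cxcl5-/- was 1.04 in MycOE and 0.89 in Hif1aOE on the log2 scale, with the same 2 Cxcl5-/- libraries under both. Without Hif1aOE replicate 1 or 3, 6 members were higher in MycOE, and without Hif1aOE replicate 3 or any 1 MycOE replicate, 2 were higher in Hif1aOE.

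Ldha, which turns pyruvate into lactate, was at 1967, 1861 and 1799.9 CPM in MycOE and 1465, 1723 and 1324 CPM in Hif1aOE (log2 fold change 0.32 ± 0.10 SE, edgeR adjusted p = 0.048). This call was lost with library totals and in 5 of the 6 fits that left out 1 library, all but the one without Hif1aOE replicate 2, with adjusted p of up to 0.14. Hk2, the inducible hexokinase, did not pass, at 77.8, 84.2 and 95.1 CPM in MycOE and 115, 84.9 and 97.7 CPM in Hif1aOE (log2 fold change -0.21 ± 0.11 SE, edgeR adjusted p = 0.23), and passed only without Hif1aOE replicate 2 (adjusted p = 0.047). The members higher in Hif1aOE included Pfkfb4, a kinase and phosphatase that sets fructose 2,6-bisphosphate, at 26.8, 26.5 and 24.7 CPM in Hif1aOE and 11.7, 11.48 and 12.9 CPM in MycOE (log2 fold change -1.11 ± 0.090 SE, edgeR adjusted p = 7.4e-06). Its relative Pfkfb3 was higher in MycOE (0.85 ± 0.18). Eno2, the neuronal enolase, was at 25.04, 28.3 and 24.9 CPM in Hif1aOE and 17.7, 14.6 and 14.1 CPM in MycOE (log2 fold change -0.76 ± 0.11 SE, edgeR adjusted p = 7.0e-04).

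Targets of HIF outside glycolysis were split, 7 of 31 being higher in MycOE and 4 in Hif1aOE (median 0.18). The first count was 11 without Hif1aOE replicate 2 and 12 by DESeq2, and the latter was 7 with library totals. Car9, a carbonic anhydrase at the cell surface and a textbook marker of hypoxia, was at 61.01, 95.1 and 55.8 CPM in MycOE and 2.86, 4.02 and 5.66 CPM in Hif1aOE (log2 fold change 4.08 ± 0.27 SE, edgeR adjusted p = 2.0e-06), with 3.22 and 3.55 CPM in Cxcl5-/- and 6.24 and 8.89 CPM in WT. The 3 MycOE libraries were the only ones with a high level, and the Hif1aOE libraries stayed near Cxcl5-/-. Ankrd37 (0.66 ± 0.10) and the stress gene Ndrg1 (0.52 ± 0.083) were higher in MycOE too. The secreted factors leaned the other way. Vegfa, the main angiogenic factor, was at 263, 265 and 274 CPM in Hif1aOE and 173, 188 and 194 CPM in MycOE (log2 fold change -0.53 ± 0.076 SE, edgeR adjusted p = 5.2e-04). Angptl4, which restrains lipoprotein lipase, was higher in Hif1aOE (-0.57 ± 0.14), a call lost without MycOE replicate 1 (adjusted p = 0.055) or 3 (adjusted p = 0.058). Hmox1, which breaks down heme, was at 132, 152 and 133 CPM in Hif1aOE and 80.1, 78.05 and 60.2 CPM in MycOE (log2 fold change -0.93 ± 0.11 SE, edgeR adjusted p = 1.1e-04), with 54.3 and 52.97 CPM in Cxcl5-/- and 264 and 244 CPM in WT. P4ha2, a collagen prolyl hydroxylase, was higher in Hif1aOE too (-0.82 ± 0.13).

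Promoters are shown for Ldha and Pgk1, from the glycolytic enzymes that are known targets of both factors, and for the HIF targets Car9 and Egln3. The 250 bases before the RefSeq start (build GRCm38.p6) lie at chr7:46845554-46845803 (plus strand) for the first of 2 Ldha starts, chrX:106186850-106187099 (plus strand) for Pgk1, chr4:43506776-43507025 (plus strand) for Car9 and chr12:54203875-54204124 (minus strand) for Egln3. Each is written 5′ to 3′ along the gene's strand. Capitals mark the E-box CACGTG and the hypoxia response cores ACGTG and GCGTG outside an E-box, searched on both strands.
Ldha: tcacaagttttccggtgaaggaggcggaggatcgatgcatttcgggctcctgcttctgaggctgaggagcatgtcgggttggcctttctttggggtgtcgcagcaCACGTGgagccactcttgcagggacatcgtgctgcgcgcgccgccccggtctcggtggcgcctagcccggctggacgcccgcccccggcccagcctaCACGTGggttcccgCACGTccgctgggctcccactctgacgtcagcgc
Pgk1: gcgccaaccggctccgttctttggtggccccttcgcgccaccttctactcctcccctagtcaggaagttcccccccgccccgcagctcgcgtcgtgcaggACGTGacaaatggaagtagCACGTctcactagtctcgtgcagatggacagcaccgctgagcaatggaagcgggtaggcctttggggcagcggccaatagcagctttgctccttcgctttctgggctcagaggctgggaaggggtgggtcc
Car9: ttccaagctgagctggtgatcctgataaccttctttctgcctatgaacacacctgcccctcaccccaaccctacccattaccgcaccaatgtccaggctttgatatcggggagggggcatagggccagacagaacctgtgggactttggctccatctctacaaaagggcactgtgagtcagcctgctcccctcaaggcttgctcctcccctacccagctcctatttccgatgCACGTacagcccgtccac
Egln3: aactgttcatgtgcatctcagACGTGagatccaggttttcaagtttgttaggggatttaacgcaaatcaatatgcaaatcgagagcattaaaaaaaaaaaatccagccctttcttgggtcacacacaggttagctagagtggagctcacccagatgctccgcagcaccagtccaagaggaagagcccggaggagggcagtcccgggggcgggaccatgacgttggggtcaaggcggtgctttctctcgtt
The Ldha window shown held 2 E-boxes and 1 hypoxia core, and that of the second Ldha start 0 E-boxes and 1 hypoxia core. The Pgk1 window held 2 hypoxia cores, and the Car9 and Egln3 windows 1 each. Such letters are common: over all 32851 RefSeq promoters of 300 bases, 7.15% held an E-box and 40.4% a hypoxia core.

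Over the 15096 tested genes with a promoter in the table, 9.996% held an E-box and 55.3% a hypoxia core. The E-box was found for 10.7% of genes higher in MycOE and 11.4% of genes higher in Hif1aOE. The hypoxia core was found for 59.9% and 60.6% of them. The directions of the comparison thus held the letters at almost the same share, both somewhat above all tested genes. A match describes these letters in this window and is not a binding site.

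Serine and one-carbon enzymes were higher in MycOE for 10 of 25 members and in Hif1aOE for 3 (median 0.32), the latter being 1 without Hif1aOE replicate 1 or MycOE replicate 1. Psat1, the transaminase of serine synthesis, was at 741, 702 and 714 CPM in MycOE and 474, 469.7 and 413 CPM in Hif1aOE (log2 fold change 0.67 ± 0.081 SE, edgeR adjusted p = 1.6e-04), with 149.7 and 133 CPM in Cxcl5-/-. The next enzyme Psph was at 69.4, 63.6 and 55.5 CPM in MycOE and 51.2, 42.9 and 36.3 CPM in Hif1aOE (log2 fold change 0.53 ± 0.12 SE, edgeR adjusted p = 0.011). Shmt1, which moves a carbon from serine to folate in the cytosol, was at 24.9, 26.3 and 25.3 CPM in MycOE and 16.5, 17.7 and 15.2 CPM in Hif1aOE (log2 fold change 0.63 ± 0.089 SE, edgeR adjusted p = 4.5e-04). Its mitochondrial counterpart Shmt2 differed by 0.26 ± 0.079, a call lost in 5 of the 6 fits that left out 1 library (adjusted p up to 0.15). The folate enzymes Mthfd1 (0.53 ± 0.088) and Mthfd2 (0.45 ± 0.076) were higher in MycOE as well. Aldh1l1, which burns cytosolic formyl folate, was higher in Hif1aOE, at 46.9, 37.9 and 41.8 CPM in Hif1aOE and 24.6, 27.7 and 24.5 CPM in MycOE (log2 fold change -0.72 ± 0.10 SE, edgeR adjusted p = 3.1e-04). Gldc, of the glycine cleavage system, was higher in Hif1aOE too (-1.29 ± 0.36), a call lost without Hif1aOE replicate 1 or MycOE replicate 1 or 2 (adjusted p up to 0.12).

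Purine and pyrimidine synthesis was called higher in MycOE for 8 of 24 genes and in Hif1aOE for 2, and its median of 0.09 changed sign with library totals (-0.02). Ctps, CTP synthase, was at 117, 105 and 142 CPM in MycOE and 81.9, 87.3 and 72.5 CPM in Hif1aOE (log2 fold change 0.59 ± 0.11 SE, edgeR adjusted p = 0.0026). Its paralogue Ctps2 went the other way, at 62.5, 63.3 and 59.97 CPM in Hif1aOE and 43.6, 38.9 and 38.8 CPM in MycOE (log2 fold change -0.62 ± 0.071 SE, edgeR adjusted p = 1.1e-04). The paralogues Impdh2 (0.50 ± 0.10) and Impdh1 (-0.39 ± 0.11), which open guanine nucleotide synthesis, were split in the same way, the latter call being lost without Hif1aOE replicate 1 or without any MycOE replicate (adjusted p up to 0.11). Ppat, the first committed step of purine synthesis, was higher in MycOE (0.45 ± 0.078).

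Nitrogen enzymes were higher in MycOE for 8 of 25 members and in Hif1aOE for 3. Glul, glutamine synthetase, was at 64.5, 54.7 and 64.8 CPM in MycOE and 17.3, 21.9 and 22.97 CPM in Hif1aOE (log2 fold change 1.57 ± 0.12 SE, edgeR adjusted p = 4.2e-06), with 91.9 and 93.9 CPM in Cxcl5-/- and 38.6 and 32.8 CPM in WT. Gpt2, mitochondrial alanine transaminase, was at 62.4, 61.3 and 59.96 CPM in MycOE and 37.1, 29.3 and 33.4 CPM in Hif1aOE (log2 fold change 0.88 ± 0.090 SE, edgeR adjusted p = 4.2e-05). Ass1, which joins citrulline and aspartate in the urea cycle, was at 39.4, 30.02 and 35.5 CPM in Hif1aOE and 6.92, 6.78 and 7.35 CPM in MycOE (log2 fold change -2.32 ± 0.12 SE, edgeR adjusted p = 2.6e-07), with 70.2 and 86.9 CPM in Cxcl5-/- and 6.46 and 6.54 CPM in WT. MycOE thus lay at the WT level of Ass1 and Hif1aOE between WT and Cxcl5-/-.

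The ATF4 response and its amino acid carriers were higher in MycOE for 12 of 26 genes and in Hif1aOE for 2. Of the 26 estimates, 15 lay above 0 and 11 below (median 0.10). The first count was 9 to 11 when 1 library was left out and 10 with library totals. Slc7a5, the large neutral amino acid carrier, was at 107, 97.4 and 90.3 CPM in MycOE and 62.2, 43.01 and 59.6 CPM in Hif1aOE (log2 fold change 0.84 ± 0.13 SE, edgeR adjusted p = 7.6e-04). Slc1a5, which imports glutamine, was higher by 0.43 ± 0.066. The glycine transporter Slc6a9 was at 70.8, 64.6 and 65.8 CPM in MycOE and 43.2, 37.96 and 41.6 CPM in Hif1aOE (log2 fold change 0.71 ± 0.084 SE, edgeR adjusted p = 1.3e-04). Asns, asparagine synthetase, followed (0.53 ± 0.086), and so did the factor Atf5 (1.08 ± 0.14). Atf3 was higher in Hif1aOE, at 10.3, 11.4 and 13.9 CPM in Hif1aOE and 4.95, 5.87 and 4.88 CPM in MycOE (log2 fold change -1.19 ± 0.14 SE, edgeR adjusted p = 1.1e-04).

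Of 22 genes of galactose and glycogen metabolism, 3 were higher in each group (median -0.14), with 1 higher in MycOE without Hif1aOE replicate 3 or MycOE replicate 2. Akr1b3, aldose reductase, which reduces glucose and galactose to polyols, was at 549, 893 and 469 CPM in Hif1aOE and 315, 280.2 and 243 CPM in MycOE (log2 fold change -1.19 ± 0.20 SE, edgeR adjusted p = 0.0014), with 216 and 229 CPM in Cxcl5-/- and 357 and 334 CPM in WT. The Hif1aOE level lay above every other group. The sugar kinase Galk2 was higher in Hif1aOE too (-0.48 ± 0.087). Gbe1, which branches glycogen, was higher in MycOE (0.48 ± 0.077). With library totals the split was 1 to 7.

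Replication genes were higher in MycOE for 19 of 36 members and in Hif1aOE for 1 (median 0.30). Mcm5 of the replicative helicase was at 174, 168 and 163 CPM in MycOE and 111, 126 and 108 CPM in Hif1aOE (log2 fold change 0.55 ± 0.075 SE, edgeR adjusted p = 3.6e-04). Rpa2, which coats single-stranded DNA, was at 37.1, 37.5 and 31.4 CPM in MycOE and 17.8, 20.5 and 15.7 CPM in Hif1aOE (log2 fold change 0.97 ± 0.11 SE, edgeR adjusted p = 1.1e-04). In both, the groups did not overlap. Mcm10 (0.76 ± 0.11) and the primase subunit Prim2 (0.60 ± 0.089) were also higher. Cdc6, which loads the helicase, was at 22.02, 18.9 and 22.9 CPM in MycOE and 15.2, 18.1 and 16.1 CPM in Hif1aOE (log2 fold change 0.37 ± 0.11 SE, edgeR adjusted p = 0.031). The call was lost with library totals and without Hif1aOE replicate 1 or 3 or MycOE replicate 1 or 3 (adjusted p up to 0.12). With library totals 10 members were higher in MycOE, and none was higher in Hif1aOE without MycOE replicate 1.

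Among 31 genes of mitosis, 10 were higher in MycOE (6 with library totals) and 2 in Hif1aOE, Anln and Foxm1, which each lost the call in 3 of the 6 fits that left out 1 library (adjusted p up to 0.075). Cdc20, which activates the anaphase-promoting complex, was at 149, 139 and 156 CPM in MycOE and 74.8, 79.5 and 73.7 CPM in Hif1aOE (log2 fold change 0.96 ± 0.080 SE, edgeR adjusted p = 8.7e-06). The spindle kinesin Kif2c was at 61.5, 60.5 and 73.8 CPM in MycOE and 34.8, 39.5 and 33.4 CPM in Hif1aOE (log2 fold change 0.86 ± 0.10 SE, edgeR adjusted p = 9.4e-05). The mitotic kinase Cdk1 (0.20 ± 0.12; edgeR adjusted p = 0.33) and its cyclin Ccnb1 (0.11 ± 0.093; edgeR adjusted p = 0.50) did not pass, although Cdk1 did without Hif1aOE replicate 2 (adjusted p = 0.014). Of 19 genes of G1 control, 2 were higher in each group. Ccnd2, a D-type cyclin, was at 178, 184 and 177 CPM in MycOE and 92.6, 75.97 and 95.5 CPM in Hif1aOE (log2 fold change 1.03 ± 0.087 SE, edgeR adjusted p = 1.1e-05), with 232 and 234 CPM in Cxcl5-/- and 108 and 111 CPM in WT. The inhibitor Cdkn2c was higher in MycOE as well (1.03 ± 0.10). Cdkn1a (p21), which Myc is known to repress, was at 12.8, 16.7 and 16.7 CPM in Hif1aOE and 6.24, 6.59 and 5.46 CPM in MycOE (log2 fold change -1.34 ± 0.12 SE, edgeR adjusted p = 2.0e-05), and E2f2 was higher in Hif1aOE (-1.15 ± 0.11). Of 11 tested genes that Myc represses in textbooks, 5 were higher in Hif1aOE, Cdkn1a among them, and 3 in MycOE (median -0.25).

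Among 22 genes listed here as textbook Myc targets, 6 were higher in MycOE and 2 in Hif1aOE. The 6 included the cyclin Ccnd2, described above. Pdcd4, which restrains the initiation helicase Eif4a, was counted with them as a member of the list (0.98 ± 0.078). Its standing as a Myc target was not tested. The polyamine enzymes were split. Amd1, which makes the aminopropyl donor, was at 262, 260.4 and 266 CPM in MycOE and 138, 134 and 122 CPM in Hif1aOE (log2 fold change 1.00 ± 0.069 SE, edgeR adjusted p = 2.3e-06). Odc1, the rate-limiting decarboxylase, was at 380.3, 333 and 321 CPM in MycOE and 209.7, 250.1 and 232 CPM in Hif1aOE (log2 fold change 0.58 ± 0.091 SE, edgeR adjusted p = 9.5e-04). Spermine synthase Sms went the other way (-0.30 ± 0.072). Eif4ebp1, a repressor of cap-dependent translation, was at 122, 119 and 96.02 CPM in MycOE and 112, 129 and 97.2 CPM in Hif1aOE (log2 fold change -0.01 ± 0.11 SE, edgeR adjusted p = 1.0), both groups standing above the 40.6 and 42.1 CPM of Cxcl5-/-.

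**Figure D4:**
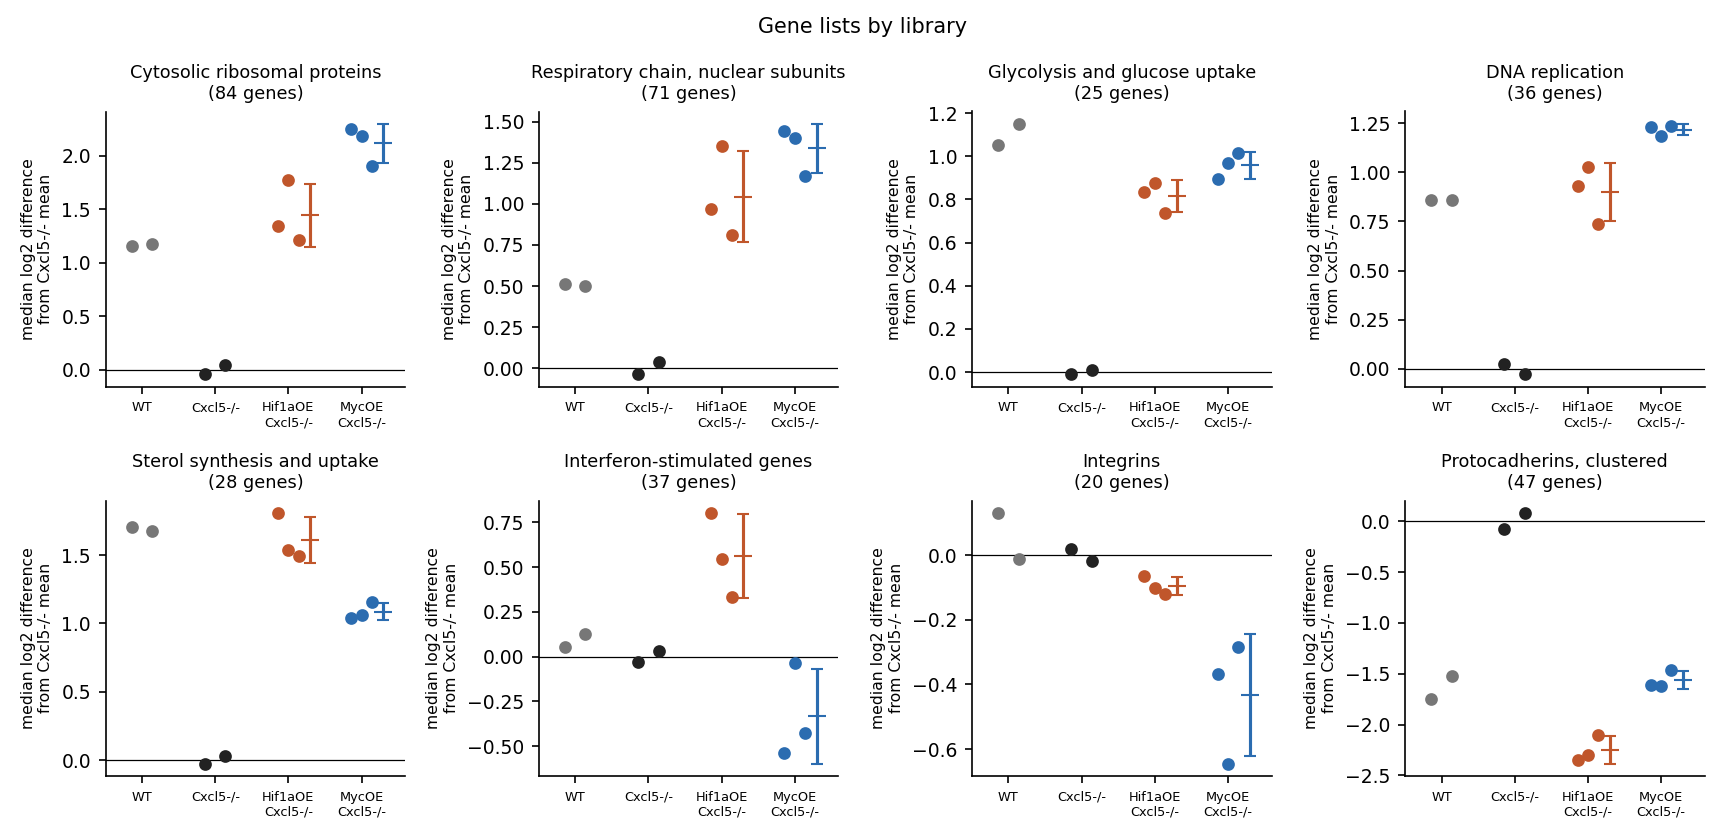
Median over the members of 8 gene lists of the log2 difference from the mean of the Cxcl5-/- libraries, 1 point per library, with the mean ± SD beside the groups of 3; 0.5 CPM was added before the logarithm. Hif1aOE replicate 2 lies above the other Hif1aOE libraries for ribosomal proteins and the respiratory chain, while for sterol synthesis, interferon-stimulated genes, integrins and protocadherins the 3 MycOE libraries lie apart from the 3 Hif1aOE libraries.

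Sterol synthesis had the largest share of members higher in Hif1aOE among the lists of at least 20 genes tested. Of 28 genes, 17 were higher in Hif1aOE and 2 in MycOE (median -0.50), and 15 of the 20 genes of the synthesis route itself were among the 17. Hmgcs1, an early enzyme of the route, was at 514, 373 and 381 CPM in Hif1aOE and 239, 256 and 273 CPM in MycOE (log2 fold change -0.72 ± 0.12 SE, edgeR adjusted p = 0.0013), with 108 and 119 CPM in Cxcl5-/- and 509 and 489.5 CPM in WT. Fdps, which builds farnesyl diphosphate, was at 350.4, 313 and 278 CPM in Hif1aOE and 186, 176 and 183 CPM in MycOE (log2 fold change -0.79 ± 0.093 SE, edgeR adjusted p = 1.3e-04). For both, MycOE lay between Cxcl5-/- and Hif1aOE. Hsd17b7, which also acts in sterol synthesis, was at 79.9, 57.7 and 61.4 CPM in Hif1aOE and 25.7, 28.7 and 27.8 CPM in MycOE (log2 fold change -1.28 ± 0.11 SE, edgeR adjusted p = 1.4e-05). Srebf2, the factor that drives the route, differed by -0.29 ± 0.074, a call lost without Hif1aOE replicate 1 or 3 or MycOE replicate 1 (adjusted p up to 0.066). The 2 members called in MycOE, Stard4 and Srebf1, lost their calls with library totals, and in 3 and 4 of the 6 fits that left out 1 library.

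Among 19 genes of fatty acid metabolism, 6 were higher in Hif1aOE and 3 in MycOE. Acly, which makes cytosolic acetyl-CoA, was at 377, 317 and 318 CPM in Hif1aOE and 197, 197 and 226 CPM in MycOE (log2 fold change -0.71 ± 0.090 SE, edgeR adjusted p = 2.2e-04). Elovl5, an elongase of polyunsaturated chains, was at 199, 216 and 242 CPM in Hif1aOE and 120.2, 120.1 and 133 CPM in MycOE (log2 fold change -0.82 ± 0.085 SE, edgeR adjusted p = 4.8e-05). The desaturase Scd1 was also higher in Hif1aOE (-0.72 ± 0.10). Acacb, whose product malonyl-CoA blocks mitochondrial fat entry, was at 28.7, 25.4 and 28.8 CPM in MycOE and 6.47, 5.10 and 6.13 CPM in Hif1aOE (log2 fold change 2.23 ± 0.14 SE, edgeR adjusted p = 1.2e-06). Fabp4, a fatty acid carrier, was at 33.1, 34.3 and 26.3 CPM in MycOE and 2.31, 1.38 and 0.687 CPM in Hif1aOE (log2 fold change 4.42 ± 0.34 SE, edgeR adjusted p = 5.5e-06). Leaving out Hif1aOE replicate 1 reduced the 6 calls to 3.

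Interferon-stimulated genes were higher in Hif1aOE for 20 of 37 members and in MycOE for 2, with a median of -0.78. Isg15, a ubiquitin-like modifier, was at 11.7, 9.70 and 8.71 CPM in Hif1aOE and 3.76, 5.31 and 3.67 CPM in MycOE (log2 fold change -1.24 ± 0.18 SE, edgeR adjusted p = 4.8e-04), with 6.27 and 6.72 CPM in Cxcl5-/- and 6.75 and 7.33 CPM in WT. The interferon gene Ifi44 was at 17.3, 13.1 and 11.3 CPM in Hif1aOE and 3.32, 6.26 and 4.58 CPM in MycOE (log2 fold change -1.56 ± 0.22 SE, edgeR adjusted p = 5.1e-04). The guanylate-binding Gbp2 was at 27.8, 30.6 and 26.3 CPM in Hif1aOE and 6.85, 11.4 and 8.20 CPM in MycOE (log2 fold change -1.68 ± 0.16 SE, edgeR adjusted p = 2.5e-05). For Isg15 and Ifi44 every Hif1aOE library lay above, and every MycOE library below, the Cxcl5-/- libraries. Irf1 went the other way, at 64.1, 56.02 and 65.8 CPM in MycOE and 34.1, 34.02 and 33.03 CPM in Hif1aOE (log2 fold change 0.88 ± 0.081 SE, edgeR adjusted p = 2.0e-05). Ifit2 was the other member higher in MycOE (0.31 ± 0.073), a call lost with library totals. Without Hif1aOE replicate 2 or MycOE replicate 3, 4 members were higher in MycOE.

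The NF-kB list was higher in Hif1aOE for 5 of 13 members and in MycOE for 1, Nfkbia, whose call was lost with library totals and without Hif1aOE replicate 1. Nfkb2 was at 97.9, 96.9 and 99.8 CPM in Hif1aOE and 64.8, 53.98 and 58.8 CPM in MycOE (log2 fold change -0.73 ± 0.077 SE, edgeR adjusted p = 5.5e-05). The transactivating subunit Rela was at 49.8, 51.1 and 51.3 CPM in Hif1aOE and 38.9, 31.1 and 33.05 CPM in MycOE (log2 fold change -0.56 ± 0.091 SE, edgeR adjusted p = 0.0012). Of 28 chemokine and acute phase genes, 10 were higher in Hif1aOE and 5 in MycOE, and the median of -0.50 ranged from -0.68 to -0.15 when 1 library was left out. The monocyte attractant Ccl2 was at 155, 246 and 158 CPM in Hif1aOE and 41.7, 41.2 and 35.1 CPM in MycOE (log2 fold change -2.24 ± 0.16 SE, edgeR adjusted p = 3.3e-06). Its neighbour Ccl7 was at 44.6, 63.1 and 36.9 CPM in Hif1aOE and 12.1, 14.6 and 10.4 CPM in MycOE (log2 fold change -1.96 ± 0.18 SE, edgeR adjusted p = 2.2e-05). Both were higher in every Hif1aOE library than in any MycOE or Cxcl5-/- library. Slpi, a secreted protease inhibitor, was at 67.7, 85.1 and 64.9 CPM in Hif1aOE and 23.3, 25.4 and 19.6 CPM in MycOE (log2 fold change -1.67 ± 0.12 SE, edgeR adjusted p = 3.7e-06), and complement factor Cfb was higher in Hif1aOE (-2.21 ± 0.19). Against these, haptoglobin (Hp) was at 127, 99.8 and 84.3 CPM in MycOE and 10.1, 7.48 and 10.7 CPM in Hif1aOE (log2 fold change 3.46 ± 0.21 SE, edgeR adjusted p = 9.0e-07). The chemokine Ccl9 was at 45.8, 44.3 and 37.8 CPM in MycOE and 12.6, 12.04 and 9.74 CPM in Hif1aOE (log2 fold change 1.90 ± 0.14 SE, edgeR adjusted p = 3.8e-06). Complement C3 was higher in MycOE as well (0.68 ± 0.12).

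Of 19 chaperones and sensors of the endoplasmic reticulum, 9 were higher in Hif1aOE and 1 in MycOE, Herpud1, whose call was lost with library totals and without Hif1aOE replicate 3 or MycOE replicate 1. The stress sensors and the factor they activate made up 4 of the 9. Atf6 was at 119, 115 and 117 CPM in Hif1aOE and 83.2, 83.5 and 81.7 CPM in MycOE (log2 fold change -0.50 ± 0.061 SE, edgeR adjusted p = 1.6e-04). Ern1 (Ire1) was at 42.04, 40.8 and 49.6 CPM in Hif1aOE and 26.4, 27.6 and 27.1 CPM in MycOE (log2 fold change -0.71 ± 0.094 SE, edgeR adjusted p = 3.0e-04). Eif2ak3 (Perk; -0.44 ± 0.091) and Xbp1 (-0.36 ± 0.084) followed, and all 3 sensors were lower in MycOE than in Cxcl5-/- on average. The chaperone Hyou1 was at 274, 264 and 244 CPM in Hif1aOE and 169, 174 and 196 CPM in MycOE (log2 fold change -0.54 ± 0.085 SE, edgeR adjusted p = 9.7e-04).

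Of 44 matrix proteins and matrix enzymes other than collagens, 22 were higher in Hif1aOE and 5 in MycOE (median -0.40), and of 26 collagens, 7 and 2 (8 and 4 by DESeq2). Fn1, fibronectin, was at 5443, 4345 and 6062 CPM in Hif1aOE and 1967, 2429.7 and 2286 CPM in MycOE (log2 fold change -1.25 ± 0.13 SE, edgeR adjusted p = 5.6e-05), with 12332 and 12328 CPM in Cxcl5-/- and 4464 and 4581 CPM in WT. Both groups lay below the construct-free knockout. Mmp3, stromelysin 1, was at 64.3, 149 and 83.4 CPM in Hif1aOE and 0.571, 0.761 and 0.317 CPM in MycOE (log2 fold change -7.51 ± 0.39 SE, edgeR adjusted p = 2.8e-07), with 1.62 and 1.06 CPM in Cxcl5-/- and 0.750 and 0.652 CPM in WT. Mmp3 was near 0 in all groups but Hif1aOE. Dcn, decorin, was at 16.3, 31.9 and 27.2 CPM in Hif1aOE and 1.06, 2.48 and 2.77 CPM in MycOE (log2 fold change -3.57 ± 0.32 SE, edgeR adjusted p = 1.6e-05). Timp2, an inhibitor of metalloproteases, was at 252, 279 and 271 CPM in Hif1aOE and 151, 139 and 121 CPM in MycOE (log2 fold change -0.97 ± 0.089 SE, edgeR adjusted p = 1.9e-05). Col7a1, which makes anchoring fibrils, was at 15.2, 21.1 and 17.2 CPM in Hif1aOE and 2.26, 2.46 and 1.87 CPM in MycOE (log2 fold change -3.02 ± 0.21 SE, edgeR adjusted p = 2.2e-06), and Col3a1 was higher in Hif1aOE as well (-0.70 ± 0.093).

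The metalloproteases did not all share this direction. Mmp2, gelatinase A, was at 58.3, 66.7 and 48.1 CPM in MycOE and 1.43, 1.38 and 2.69 CPM in Hif1aOE (log2 fold change 4.97 ± 0.23 SE, edgeR adjusted p = 1.3e-07), with 36.4 and 39.6 CPM in Cxcl5-/- and 11.6 and 11.9 CPM in WT. Here Hif1aOE was the lowest group. Lamb3, a chain of an epithelial laminin, was at 45.2, 53.02 and 50.7 CPM in MycOE and 3.59, 4.72 and 5.13 CPM in Hif1aOE (log2 fold change 3.47 ± 0.15 SE, edgeR adjusted p = 8.7e-08). Bgn, biglycan, was at 22.8, 33.9 and 21.5 CPM in MycOE and 7.31, 7.15 and 6.83 CPM in Hif1aOE (log2 fold change 1.87 ± 0.17 SE, edgeR adjusted p = 1.4e-05).

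Integrins were higher in Hif1aOE for 10 of 20 genes and in MycOE for 2 (median -0.32), with 6 of the 7 beta chains among the 10. Itga6 and Itgb4 form the laminin receptor of hemidesmosomes. Itga6 was at 38.3, 35.4 and 37.4 CPM in Hif1aOE and 3.19, 3.83 and 3.07 CPM in MycOE (log2 fold change -3.46 ± 0.10 SE, edgeR adjusted p = 6.6e-09), with 2.08 and 1.99 CPM in Cxcl5-/- and 76.95 and 80.04 CPM in WT. Itgb4 was at 31.3, 30.8 and 37.9 CPM in Hif1aOE and 6.77, 10.1 and 6.997 CPM in MycOE (log2 fold change -2.07 ± 0.15 SE, edgeR adjusted p = 2.9e-06). For Itga6 the Hif1aOE libraries lay between Cxcl5-/- and WT, and the MycOE libraries just above Cxcl5-/-. Itgb8 was at 92.2, 103 and 108 CPM in Hif1aOE and 31.96, 41.8 and 30.1 CPM in MycOE (log2 fold change -1.55 ± 0.13 SE, edgeR adjusted p = 7.9e-06). The collagen receptor chain Itga1 was the largest difference in the other direction, at 23.3, 29.1 and 31.9 CPM in MycOE and 1.20, 0.944 and 1.68 CPM in Hif1aOE (log2 fold change 4.46 ± 0.21 SE, edgeR adjusted p = 1.3e-07).

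Of 13 keratins and pancreatic factors tested, 4 were higher in Hif1aOE and 1 in MycOE, Sox9, with no call in MycOE in 4 of the 6 fits that left out 1 library. Krt18 was at 373, 349 and 314 CPM in Hif1aOE and 84.9, 87.1 and 72.7 CPM in MycOE (log2 fold change -2.08 ± 0.10 SE, edgeR adjusted p = 1.3e-07), with 84.9 and 93.03 CPM in Cxcl5-/- and 349 and 372 CPM in WT. Its partner Krt8 was at 408, 407 and 345 CPM in Hif1aOE and 199, 191 and 166 CPM in MycOE (log2 fold change -1.06 ± 0.093 SE, edgeR adjusted p = 1.4e-05). Krt7 was at 38.5, 20.8 and 27.3 CPM in Hif1aOE and 2.90, 3.37 and 4.19 CPM in MycOE (log2 fold change -3.04 ± 0.24 SE, edgeR adjusted p = 6.9e-06). For Krt18 and Krt8 the Hif1aOE levels lay near WT and the MycOE levels near Cxcl5-/-. Of 20 genes of epithelial-mesenchymal transition, 9 were higher in Hif1aOE and 2 in MycOE, with 3 epithelial genes, 3 mesenchymal genes and 3 transcription factors among the 9. Cldn1, a tight junction protein, was at 4.45, 4.25 and 4.05 CPM in Hif1aOE and 0.634, 0.413 and 0.353 CPM in MycOE (log2 fold change -3.19 ± 0.31 SE, edgeR adjusted p = 2.7e-05). Snai2, a repressor that promotes transition, was at 3.51, 3.51 and 4.30 CPM in Hif1aOE and 0.888, 0.283 and 0.564 CPM in MycOE (log2 fold change -2.70 ± 0.34 SE, edgeR adjusted p = 2.1e-04). Zeb1, another such repressor, was at 43.8, 44.9 and 43.9 CPM in MycOE and 4.14, 5.73 and 5.66 CPM in Hif1aOE (log2 fold change 3.09 ± 0.13 SE, edgeR adjusted p = 6.1e-08), with 57.04 and 52.99 CPM in Cxcl5-/- and 35.1 and 29.4 CPM in WT. For Zeb1 the Hif1aOE libraries lay below all other libraries. Vim, vimentin, was higher in MycOE (0.38 ± 0.078).

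In the list of 36 actin and focal adhesion genes, 10 were higher in Hif1aOE and 6 in MycOE. Acta2, smooth muscle actin, was at 104, 91.6 and 96.6 CPM in MycOE and 2.27, 3.11 and 2.80 CPM in Hif1aOE (log2 fold change 5.15 ± 0.14 SE, edgeR adjusted p = 6.6e-09), with 35.7 and 41.7 CPM in Cxcl5-/- and 6.62 and 5.33 CPM in WT. Ccn2, a target of YAP and of TGF-beta, was at 141, 140.4 and 111 CPM in MycOE and 9.29, 13.51 and 15.2 CPM in Hif1aOE (log2 fold change 3.37 ± 0.16 SE, edgeR adjusted p = 2.0e-07), with 277 and 277 CPM in Cxcl5-/- and 16.1 and 16.1 CPM in WT. In both genes Hif1aOE lay below WT on average; MycOE was above Cxcl5-/- for Acta2 and below it for Ccn2. Ankrd1, a YAP target too, went the other way, at 99.8, 102 and 83.3 CPM in Hif1aOE and 51.2, 45.4 and 45.5 CPM in MycOE (log2 fold change -1.01 ± 0.091 SE, edgeR adjusted p = 1.7e-05), as did the filamin Flna (-0.51 ± 0.083).

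**Figure D5:**
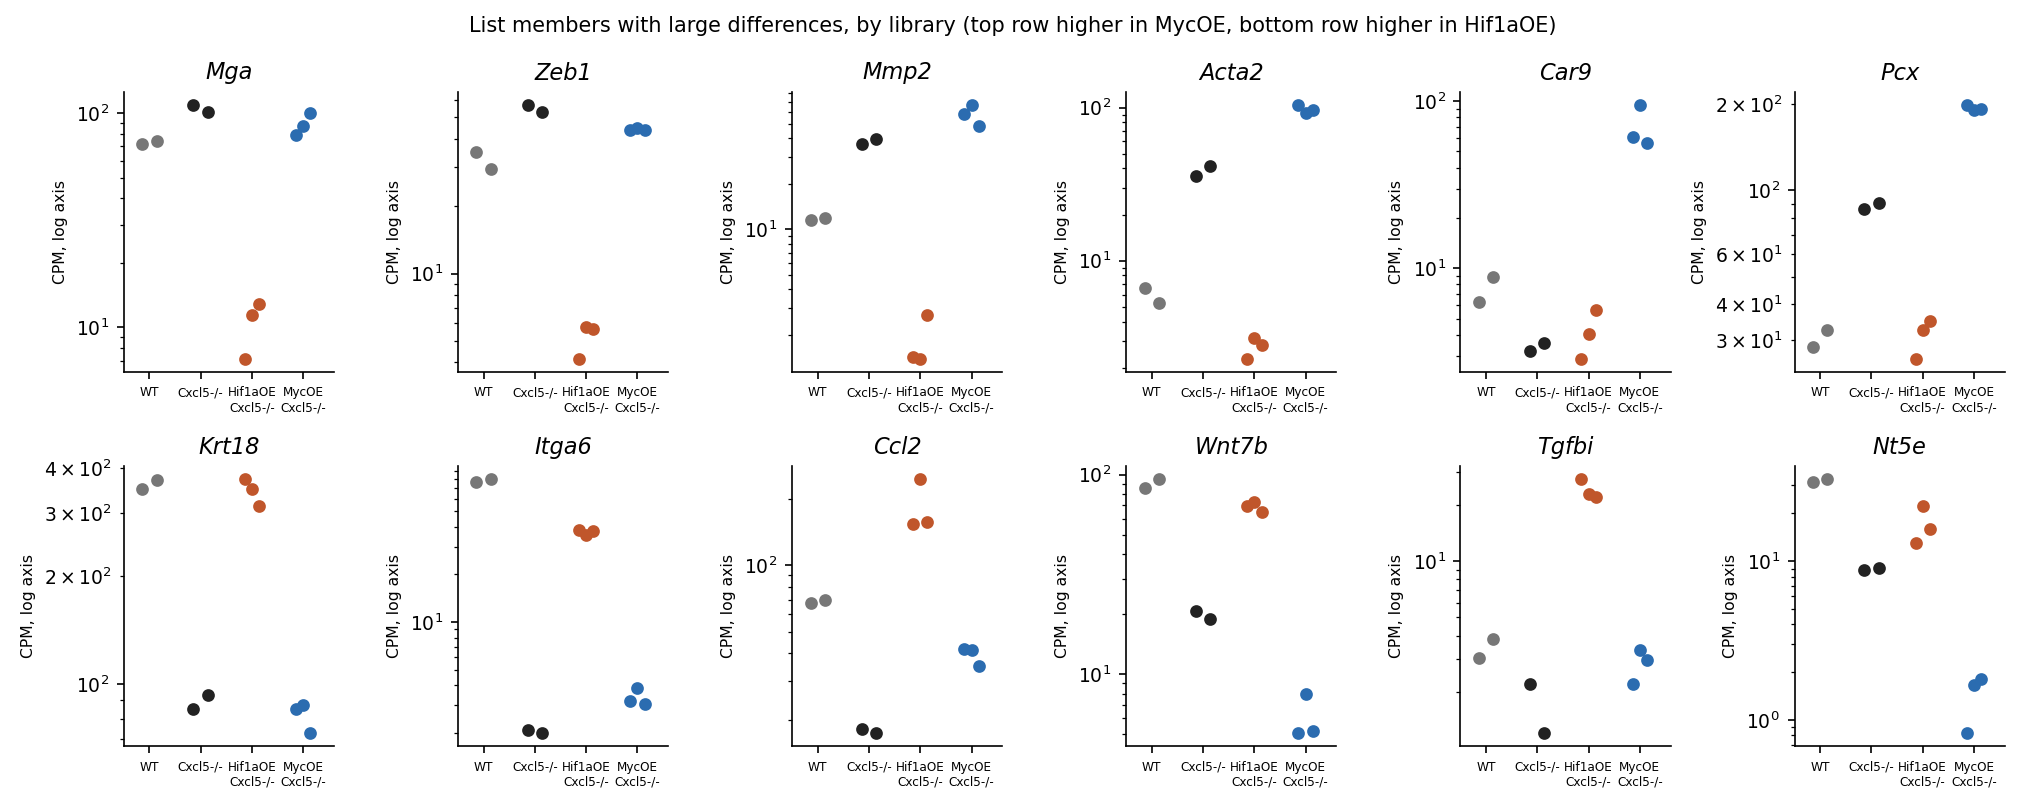
Expression of 12 members of the lists in each library on a logarithmic CPM axis, for WT, Cxcl5-/-, Hif1aOE Cxcl5-/- and MycOE Cxcl5-/- spheroids, chosen for the picture after their values were seen. In each of the 12 the 3 MycOE libraries lie apart from the 3 Hif1aOE libraries; for Mga and Zeb1 Hif1aOE departs from all other groups, for Car9 MycOE does, and for Krt18 and Wnt7b Hif1aOE lies near WT.

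The clustered protocadherins, neuronal adhesion proteins, were higher in MycOE for 18 of 47 genes tested and in Hif1aOE for 0 (median 0.84), with 20 and 3 at an unadjusted p under 0.05 and 18 and 1 by DESeq2. Of the 18, 14 belonged to the beta cluster. Pcdhb21 was at 22.2, 19.9 and 19.7 CPM in MycOE and 1.000, 1.28 and 2.02 CPM in Hif1aOE (log2 fold change 3.84 ± 0.20 SE, edgeR adjusted p = 3.0e-07), with 32.4 and 33.7 CPM in Cxcl5-/- and 5.56 and 5.26 CPM in WT. Pcdhga6 stood at 11.1, 8.89 and 10.5 CPM in MycOE and 1.65, 1.83 and 2.82 CPM in Hif1aOE (log2 fold change 2.27 ± 0.17 SE, edgeR adjusted p = 5.1e-06), with 72.5 and 67.4 CPM in Cxcl5-/- and 6.84 and 6.70 CPM in WT. The construct-free knockout lay above all other groups for both. Over the list the median difference from Cxcl5-/- was -2.17 in MycOE and -3.31 in Hif1aOE. Genes of a protocadherin cluster are similar in sequence, so that their counts are not independent. In the alpha and gamma clusters they also share exons.

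Signals at the cell surface also differed. Of 20 genes of the EGF family and its feedback, 8 were higher in Hif1aOE and 2 in MycOE. The ligand Areg, amphiregulin, was at 14.04, 12.4 and 12.3 CPM in Hif1aOE and 2.50, 3.70 and 2.45 CPM in MycOE (log2 fold change -2.17 ± 0.14 SE, edgeR adjusted p = 1.6e-06), with 2.18 and 2.05 CPM in Cxcl5-/- and 139.8 and 134 CPM in WT. Ereg, epiregulin, was at 23.4, 24.8 and 23.8 CPM in Hif1aOE and 10.4, 11.6 and 11.51 CPM in MycOE (log2 fold change -1.10 ± 0.082 SE, edgeR adjusted p = 3.9e-06). The receptors were split. Erbb3 was at 5.49, 4.30 and 4.70 CPM in Hif1aOE and 0.529, 0.652 and 0.670 CPM in MycOE (log2 fold change -2.96 ± 0.23 SE, edgeR adjusted p = 4.9e-06). Egfr was at 14.5, 21.6 and 11.9 CPM in MycOE and 1.92, 4.53 and 3.18 CPM in Hif1aOE (log2 fold change 2.31 ± 0.28 SE, edgeR adjusted p = 1.4e-04), with 65.6 and 75.1 CPM in Cxcl5-/- and 2.80 and 2.91 CPM in WT. Each group was therefore higher in 1 of these receptors.

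Of 27 Wnt genes, 6 were higher in MycOE and 4 in Hif1aOE. Wnt7b was at 69.5, 72.9 and 65.1 CPM in Hif1aOE and 5.05, 8.003 and 5.20 CPM in MycOE (log2 fold change -3.51 ± 0.16 SE, edgeR adjusted p = 1.3e-07), with 20.8 and 18.9 CPM in Cxcl5-/- and 85.2 and 95.02 CPM in WT. The ligand Wnt6 went the other way, at 32.2, 25.6 and 25.6 CPM in MycOE and 3.45, 4.02 and 4.08 CPM in Hif1aOE (log2 fold change 2.85 ± 0.15 SE, edgeR adjusted p = 2.6e-07). The coreceptor Lrp5 did so too, at 75.9, 90.7 and 83.9 CPM in MycOE and 24.00, 22.2 and 26.7 CPM in Hif1aOE (log2 fold change 1.78 ± 0.11 SE, edgeR adjusted p = 8.5e-07). Of 26 genes of the TGF-beta pathway, 9 were higher in Hif1aOE and 7 in MycOE (4 with library totals). The receptor Tgfbr2 was at 307, 309 and 266 CPM in Hif1aOE and 138, 137 and 129 CPM in MycOE (log2 fold change -1.12 ± 0.085 SE, edgeR adjusted p = 4.6e-06). Ltbp1, which stores the ligand in the matrix, was at 122, 125 and 136 CPM in Hif1aOE and 25.4, 23.6 and 25.5 CPM in MycOE (log2 fold change -2.36 ± 0.092 SE, edgeR adjusted p = 4.4e-08). Both genes were lower in MycOE than in Cxcl5-/-. The ligand Tgfb3 was higher in MycOE than in Hif1aOE (1.07 ± 0.13). Tgfbi, an adhesion protein induced by TGF-beta, was at 27.6, 22.8 and 22.2 CPM in Hif1aOE and 2.20, 3.33 and 2.94 CPM in MycOE (log2 fold change -3.10 ± 0.23 SE, edgeR adjusted p = 3.5e-06). Nt5e (CD73), which makes adenosine outside the cell, was at 13.1, 22.3 and 15.9 CPM in Hif1aOE and 0.825, 1.65 and 1.82 CPM in MycOE (log2 fold change -3.57 ± 0.27 SE, edgeR adjusted p = 3.9e-06), with 8.86 and 9.08 CPM in Cxcl5-/- and 31.4 and 32.98 CPM in WT.

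Across the whole genome, the called genes with the largest fitted difference, no overlap of the groups and a mean of at least 50 counts were near 0 in one group. Where a group had no count the fold is a lower bound, set with a floor of 3 counts for each library. Higher in MycOE, Btbd17 was at 12.99, 11.4 and 8.62 CPM and had no count in the Hif1aOE or Cxcl5-/- libraries, which gives at least 199-fold. Rtl3, a domesticated retroelement gene, was at 3.55, 9.76 and 9.57 CPM and had no count in Hif1aOE, at least 138-fold. G0s2, which inhibits the lipase of fat droplets, was at 10.7, 10.5 and 9.43 CPM against 3 counts in all of Hif1aOE, a ratio of 553 with a 95% counting interval of 189 to 2680. Those 3 counts were all in Hif1aOE replicate 3, without which G0s2 was at least 183-fold higher. All 3 stayed below 1 CPM in WT and Cxcl5-/-.

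Bmp5, a bone morphogenetic protein, was at 8.42, 24.5 and 13.7 CPM in MycOE and 0.137, 0 and 0 CPM in Hif1aOE. The glutamine carrier Slc38a3 was at 16.3, 29.3 and 15.7 CPM in MycOE and 0.314, 0 and 0.108 CPM in Hif1aOE. The osteoblast factor Sp7 stood at 9.07, 6.85 and 6.94 CPM in MycOE and 0, 0 and 0.163 CPM in Hif1aOE, and the GABA transporter Slc6a13 at 24.2, 32.4 and 16.2 CPM in MycOE and 0, 0.559 and 0 CPM in Hif1aOE. Ecrg4, Gprc5c, Pde1b and Ecscr were also among the 12 genes with the largest difference in this direction. In Bmp5, Sp7 and Slc6a13 the counts of Hif1aOE came from 1 library, and the fitted log2 fold changes rested on it. That of Bmp5 went from 8.41 to 12.60 without Hif1aOE replicate 1, that of Slc6a13 from 6.95 to 13.23 without Hif1aOE replicate 2, and that of Sp7 from 7.05 to 11.57 without Hif1aOE replicate 3. Single libraries of Hif1aOE also moved the estimates of Slc38a3 (7.21 to 8.51) and Pde1b (7.52 to 11.90) without replicate 1, Ecrg4 (9.45 to 12.86) and Gprc5c (8.97 to 12.92) without replicate 2, and Ecscr (7.003 to 11.51) without replicate 3. Without replicate 2 those of Bmp5, Pde1b, Slc38a3, Sp7 and Ecscr fell to 7.82, 6.93, 6.60, 6.46 and 6.41.

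Higher in Hif1aOE, Cck, the peptide hormone cholecystokinin, was at 37.6, 138 and 47.96 CPM, had no count in MycOE or Cxcl5-/- and was at 0.265 and 0.457 CPM in WT, at least 1230-fold over MycOE and at least 707-fold without Hif1aOE replicate 2. Mmp10, stromelysin 2, next to Mmp3 in function, was at 4.73, 9.59 and 5.71 CPM without a count in MycOE, at least 110-fold. The X-linked Xlr3c, whose close relatives can share its reads, was at 9.71, 3.98 and 5.98 CPM and at least 108-fold higher, and Akr1c18, a steroid dehydrogenase, was at 2.71, 5.43 and 5.28 CPM and at least 73.9-fold higher. Rhox5, an X-linked homeobox gene, had counts in every library of both groups, at 193, 253 and 181 CPM in Hif1aOE and 0.698, 0.522 and 0.405 CPM in MycOE (log2 fold change -8.60 ± 0.29 SE, edgeR adjusted p = 1.3e-08), with 0.0623 and 0.426 CPM in Cxcl5-/- and 63.1 and 65.4 CPM in WT. Rhox5 thus separated WT and Hif1aOE from Cxcl5-/- and MycOE.

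Scart2 differed from the others of this direction in its Cxcl5-/- level: it was at 2.51, 4.18 and 3.56 CPM in Hif1aOE and without a count in MycOE (at least 56.4-fold), but at 92.8 and 101.03 CPM in Cxcl5-/-. Both lines with a construct therefore lay far below the construct-free knockout. Atp13a4, a transport ATPase, was at 3.45, 2.78 and 3.40 CPM and without a count in MycOE (at least 53-fold), with 1.54 and 1.66 CPM in Cxcl5-/-. The serpins Serpinb9e and Serpinb9g were at least 42.8-fold and 30.5-fold higher in Hif1aOE, and Ankef1 and Arhgap40 at least 71.5-fold and 48.3-fold. The serpins belong to a family of close copies, so that their counts are uncertain.

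Of 67 clustered histone genes, 0 passed in either direction by edgeR (median 0.11), 2 were higher in MycOE and 4 in Hif1aOE at an unadjusted p under 0.05, and DESeq2 called 1. Over the list the Hif1aOE replicates lay 2.30, 2.73 and 2.12 above Cxcl5-/- as a median log2 difference and the MycOE replicates 2.63, 2.54 and 2.42, so that the groups overlapped and both stood well above the knockout. Without Hif1aOE replicate 2, 25 members were called higher in MycOE. Histone genes are close copies of each other, and their counts are not independent.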

How the data were processed

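Total RNA of the spheroids was sequenced with a stranded library kit. Per the labels and the study's methods, the authors aligned reads to mm10 with HISAT2 and assembled and quantified them with StringTie, whose versions are not given in the sources used here, and they deposited whole-number counts per gene without normalization. How StringTie output became counts is not given there either. Deposited counts were analysed as they stand. All 10 libraries of the table were fitted together, and the contrast of MycOE and Hif1aOE was tested with edgeR 4.0.16 in R 4.3.3: filterByExpr, TMM scaling, quasi-likelihood F test, Benjamini-Hochberg adjustment and a threshold of 0.05. SE is the fold change divided by the square root of F. CPM, the counts scaled to library size, were computed with TMM factors. The labels do not say whether the 3 libraries of a group came from separate cultures, so that p-values measure the spread between these libraries, which may be technical. Counts of replicates differed by far more than sampling noise, and none was counted as a duplicate. Counting intervals (95%) and floors cover counting error only. The other 2 count tables of the series were not used.

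Genes were named by rule: the targeted genes, up to 12 called genes in each direction with the largest fold change, without overlap and with a mean of at least 50 counts, and members of gene lists, led by up to 4 called members in each direction with the lowest p. Some genes that the rule names are not reported here. The gene lists and this comparison were chosen with earlier results of these data known. Gene positions and lengths came from GENCODE vM21 and promoters from RefSeq on GRCm38.p6. The fit was tested on simulated data with 200 changed genes. Alternatives were DESeq2 1.42.0 as test or scaling, library totals, other filters, the 6 libraries alone, a replicate block, each library left out, and summed symbols. Python 3.11.15, pandas 2.3.3, numpy 2.4.6, scipy 1.17.1 and matplotlib 3.10.9 were used for summaries and plots.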

Additional observations from a re-analysis of the deposited data

How the results depend on the processing

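The number of genes called (5538) ranged from 4215 to 6064 when each of the 6 libraries was left out in turn, with 2065 to 3227 higher in MycOE and 2150 to 2837 higher in Hif1aOE. A limit of 1 on the absolute log2 fold change left 1978 genes, 854 higher in MycOE and 1124 higher in Hif1aOE. DESeq2 called 6618 (3411 and 3207) and its size factors in edgeR 5603 (2916 and 2687). The absence of a filter gave 4388 of 50531 genes tested. A minimum of 10 counts in each of the 6 libraries gave 5735 of 16876, and the 6 libraries alone 4893 of 20603.

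Libraries with the same replicate number did not deviate together over all genes tested (correlations of -0.02, -0.0037 and 0.050). Such correlations cannot settle whether equal numbers share a culture or a batch. The fit with the replicate number as a block called 4687 genes, 2466 higher in MycOE and 2221 higher in Hif1aOE.

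Of 259 called genes followed through the alternatives, 240 passed in the same direction with library totals, 259 by DESeq2, 243 with the block and between 237 and 250 when 1 library was left out, and none changed sign while called. Most of these genes were chosen for a low p or a large fold change in the main fit. How often they passed therefore does not measure how often all called genes would. Among genes that did not pass, the log2 fold change of Hif1a ran from -0.10 without Hif1aOE replicate 3 to 0.044 without Hif1aOE replicate 2, and was 0.0042 without MycOE replicate 1. That of Ccnb1 turned to -0.0042 with library totals. That of Eif4ebp1 turned to 0.012 by DESeq2 and with its size factors and ran from -0.10 without Hif1aOE replicate 3 to 0.10 without Hif1aOE replicate 2, with 0.095 without MycOE replicate 3. With library totals the list medians turned to -0.022 for purine and pyrimidine synthesis, -0.033 for nitrogen enzymes, -0.014 for the ATF4 response, -0.090 for G1 control and -0.074 for the Myc, Max and Mxd network. The cause was not tested. At this depth, folds of transcripts absent from 1 group were limited by the floor of 3 counts.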
